A study of Homo sapiens with 8 samples.

Results

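The transcripts described here encode the phosphoinositide 3-kinase (PI3K), Akt and mTOR signalling chain, from the insulin-type receptors at the cell surface to the FOXO transcription factors. The members are 34 genes listed by symbol and grouped by role, and all 34 were found among the 34415 gene symbols of the count table. RNA was sequenced from 8 cultures of HaCaT, human skin keratinocytes that became immortal without an introduced gene, collected between passages 21 and 33. All cultures were in 35 mM glucose for 96 h. For 48 h, 4 of them were transfected with small interfering RNA (siRNA) against the ETS transcription factor ETV4 (siETV4), and 4 with a negative-control siRNA (siNC). The submitters call the cultures independent biological replicates. All 8 share the line and the raised glucose, so only the siRNAs are compared. The basal glucose was 5.5 mM, and none of the 8 libraries is from a culture left at that level.

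PI3K enzymes phosphorylate inositol lipids of the membrane, and the lipid made by class I enzymes recruits Akt and its activating kinase PDPK1 to the membrane. Akt in turn inhibits GSK3, the TSC complex and the FOXO factors, and release of RHEB from TSC control switches on mTOR complex 1, the growth-promoting complex. In keratinocytes the pathway is known for its part in survival, growth and migration. These steps run mainly through phosphorylation, which RNA levels do not report.

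Each library held between 35057643 and 41657753 counts. ETV4 itself averaged 2.61 ± 0.547 CPM with siETV4 against 28.2 ± 5.64 CPM with siNC (SD, n = 4 each; CPM are counts scaled to library size and composition). All 11 keratinocyte markers were detected, with a summed level of 2193 to 2435 FPKM in siETV4 and 2179 to 2430 FPKM in siNC (FPKM are fragments scaled to transcript length and library size), and 2 of them, KRT15 and KRT17, passed the test between the siRNAs. The fibroblast, melanocyte and endothelial marker lists summed to at most 1.07, 2.10 and 5.28 FPKM in any library, and the leukocyte list to at most 14.7 FPKM. Their markers COL1A2, LUM, MLANA, TYR, KDR, CLDN5 and PTPRC were at 0 counts in all libraries, but others were detected. The leukocyte marker CD68 averaged 13.4 FPKM in siETV4 and 11.7 FPKM in siNC. The endothelial marker CDH5 averaged 4.55 and 3.53 FPKM. Group means of COL1A1, PMEL and MITF lay from 0.593 to 0.913 FPKM. A single library stood apart within its group: across all genes, the deviation of siNC replicate 4 from the mean of all 8 libraries correlated with transcript GC content at a Spearman's rho of -0.59, against 0.52 to 0.62 in the other siNC libraries. In siETV4 replicates 1 to 4 this rho was -0.63, 0.20, -0.57 and 0.02. Results are therefore also given without siNC replicate 4, and with the trends of each library with GC content and length removed.

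A single member differed between the siRNAs past the threshold. PIK3C2B, a class II PI3K that makes lipids other than the class I product, was lower with siETV4 by a log2 fold change of -0.61 (SE 0.10, 95% interval -0.84 to -0.39), a decrease of 34.7%. Its adjusted p was 0.0357 (edgeR, quasi-likelihood; Benjamini-Hochberg over 13572 genes). The other 33 members did not pass an adjusted p of 0.05, and the members called were 1 of 34 beside 0.236% of all genes tested. By direction, 0 of 34 were higher (0.118% of all genes) and 1 of 34 lower (0.118%).

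The promoter of PIK3C2B is printed because it is the member that fell when an ETS factor was lowered, next to promoters of TSC2 and PIK3IP1 as examples of an ETS motif and a FOXO motif among the members. The windows run from 250 bases before to 50 after an annotated start (RefSeq, GRCh38.p14), 5′ to 3′ on the gene's strand. Capitals mark GGAA or its reverse complement TTCC, the core letters of ETS sites, in PIK3C2B. In TSC2 they mark the longer ETS consensus CCGGAAGT, and in PIK3IP1 the reverse complement of the FOXO motif GTAAACA.
PIK3C2B, chr1:204494756-204495055, minus strand: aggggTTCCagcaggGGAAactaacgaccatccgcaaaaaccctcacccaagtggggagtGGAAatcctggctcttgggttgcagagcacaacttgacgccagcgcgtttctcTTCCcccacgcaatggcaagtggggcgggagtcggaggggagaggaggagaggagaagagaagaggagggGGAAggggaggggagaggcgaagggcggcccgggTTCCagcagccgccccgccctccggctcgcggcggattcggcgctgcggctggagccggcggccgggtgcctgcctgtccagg
TSC2, chr16:2047735-2048034, plus strand: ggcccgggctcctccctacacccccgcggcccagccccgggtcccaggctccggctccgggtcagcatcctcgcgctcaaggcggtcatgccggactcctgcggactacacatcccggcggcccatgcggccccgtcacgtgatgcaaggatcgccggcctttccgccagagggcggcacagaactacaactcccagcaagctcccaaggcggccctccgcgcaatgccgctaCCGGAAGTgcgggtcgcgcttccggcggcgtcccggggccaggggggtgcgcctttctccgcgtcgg
PIK3IP1, chr22:31292439-31292738, minus strand: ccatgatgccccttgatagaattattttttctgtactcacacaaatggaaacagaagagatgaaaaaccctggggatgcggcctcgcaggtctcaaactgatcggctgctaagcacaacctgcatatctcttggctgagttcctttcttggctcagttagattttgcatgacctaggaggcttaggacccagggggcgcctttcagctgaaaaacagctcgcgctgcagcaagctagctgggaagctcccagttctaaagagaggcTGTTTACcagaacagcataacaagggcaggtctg

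Counting both strands, the PIK3C2B window held 6 GGAA cores and no CCGGAA. A window for at least 1 start was found for 31 of the 34 members, 54 windows in all, and AKT1S1, DEPTOR and MLST8 had none. The core GGAA was in 95.5% of the 35116 windows of all genes, so its presence separates few promoters. CCGGAA, which contains GGAA, was in 20.4% of the members' windows and 17.2% of all windows, in 10 members: GSK3B, IRS1, MAPKAP1, PDPK1, PIK3C2A, PIK3CA, PIK3R2, RICTOR, TSC1 and TSC2. Its extension CCGGAAGT was in MAPKAP1, PIK3C2A, PIK3R2 and TSC2 (9.26% of member windows, 4.14% of all). The FOXO motif GTAAACA was in FOXO4, PIK3CA and PIK3IP1 (5.56% of member windows, 3.42% of all). A match describes letters in the window and is not a binding site.

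The levels of the members spanned a wide range. Per length, AKT1 was the most abundant member in siNC at 68.0 ± 6.85 FPKM (SD, n = 4), followed by MAPKAP1, a subunit of mTOR complex 2, at 59.4 ± 2.71 FPKM, and AKT1S1, an inhibitory subunit of mTOR complex 1, at 50.3 ± 6.88 FPKM. The ranges of these 3 overlapped between neighbours in siNC. PIK3R2 and RHEB followed at 42.6 ± 5.33 and 37.5 ± 1.90 FPKM. In all, 10 members had a mean of at least 10 FPKM in siNC, 19 lay from 1 to 10 FPKM, and 5 were under 1 FPKM. These low members were PIK3R1, PIK3R3, INSR, PIK3CD and, lowest, DEPTOR at 0.120 ± 0.0451 FPKM. The median of the members was 4.82 FPKM, close to the 4.50 FPKM of all genes tested.

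**Figure D1:**
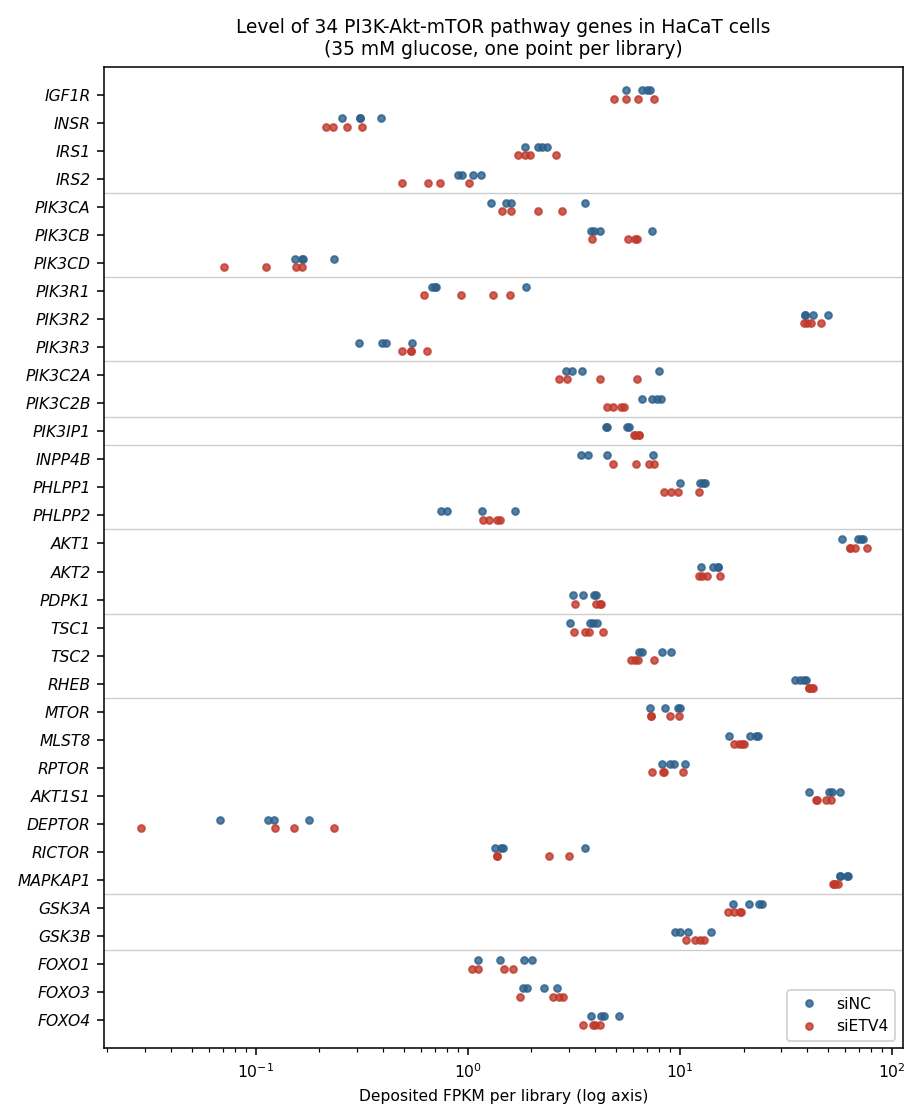
Deposited FPKM (log axis) of the 34 members, grouped by role from receptors (top) to FOXO factors (bottom), with 1 point per library, siNC in blue and siETV4 in red. Levels run from DEPTOR at 0.120 FPKM to AKT1 at 68.0 FPKM in siNC, and the groups overlap for most members.

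At the top of the chain, IGF1R was the main receptor of its kind. IGF1R, the receptor of insulin-like growth factors, stood at 6.62 ± 0.735 FPKM in siNC and 6.09 ± 1.15 FPKM in siETV4. INSR, the insulin receptor, stood at 0.316 ± 0.0555 and 0.259 ± 0.0451 FPKM. The ratio of IGF1R to INSR was 17.9 to 28.1 over the 8 libraries, with overlapping groups. The adaptors IRS1 and IRS2 carry the signal from these receptors to PI3K, and IRS1 was at 2.16 ± 0.211 FPKM in siNC against 1.02 ± 0.116 FPKM for IRS2.

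All 4 receptor and adaptor genes had negative log2 fold changes, and none of the 4 passed. IRS2 had the lowest, -0.53 (SE 0.21, 95% interval -0.98 to -0.08, edgeR adjusted p 0.351). IRS2 stood at 5.94, 4.04, 5.08 and 8.16 CPM in siETV4 replicates 1 to 4 and at 9.56, 7.97, 7.58 and 8.48 CPM in siNC replicates 1 to 4. In 3 of the siETV4 libraries IRS2 was below every siNC library, and replicate 4 lay within the siNC range. The ratio of IRS1 to IRS2 ranged from 2.51 to 3.52 with siETV4, against 2.00 to 2.38 with siNC. It was the 1 ratio without overlap between the groups among 17 that were formed, and it was formed with the values known, so it carries no test. INSR, IGF1R and IRS1 had log2 fold changes of -0.33, -0.16 and -0.12. With GC and length trends removed, IRS2 stood at -0.38 and INSR at -0.28, while IGF1R and IRS1 were near 0 at -0.04 and -0.03.

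Among class I catalytic subunits, which carry the lipid kinase activity, PIK3CB was the most abundant. It stood at 4.84 ± 1.72 FPKM in siNC, PIK3CA at 1.99 ± 1.06 FPKM and PIK3CD, the form known from leukocytes, at 0.180 ± 0.0371 FPKM. PIK3CB exceeded PIK3CA by 2.07 to 3.54 times in every library. None of the 3 passed. PIK3CA had a log2 fold change of -0.03 (SE 0.30), PIK3CB of 0.14 (SE 0.21) and PIK3CD of -0.55 (SE 0.34).

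For PIK3CA the siNC libraries fell into an uneven group. PIK3CA stood at 15.5, 12.8 and 14.95 CPM in siNC replicates 1 to 3 and reached 33.3 CPM in the fourth siNC library. The siETV4 libraries stood at 26.2, 14.1, 19.6 and 15.1 CPM, so all 4 lay between the lowest and the highest siNC library. Without siNC replicate 4 the log2 fold change of PIK3CA was 0.38 (edgeR adjusted p 0.175), and with GC and length trends removed it was -0.19 (edgeR adjusted p 0.447).

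The regulatory subunits hold and stabilise the catalytic ones. PIK3R2 dominated at 42.6 FPKM in siNC against 0.995 ± 0.592 FPKM for PIK3R1 and 0.415 ± 0.0998 FPKM for PIK3R3. The ratio of PIK3R2 to PIK3R1 was 70.4, 57.01, 60.3 and 20.7 in siNC replicates 1 to 4. In siETV4 it was 24.6, 66.8, 30.1 and 49.7 in replicates 1 to 4, so this ratio differed more within each group than between the groups. PIK3R2 had a log2 fold change of -0.08 (SE 0.11), PIK3R1 of 0.13 (SE 0.35) and PIK3R3 of 0.38 (SE 0.20), none past the threshold. In the annotation PIK3R2 overlaps AC007192.1 on the same strand.

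The class II enzymes PIK3C2A and PIK3C2B stood at 4.35 ± 2.41 and 7.48 ± 0.657 FPKM in siNC. PIK3C2B stood at 43.9, 39.0, 39.5 and 45.4 CPM in siETV4 replicates 1 to 4. In siNC replicates 1 to 4 it stood at 70.0, 58.3, 64.2 and 64.3 CPM. The highest siETV4 library was thus below the lowest siNC library, and siNC replicate 4 lay among the other siNC libraries. The call held without siNC replicate 4 (log2 fold change -0.61, edgeR adjusted p 0.00612). With the trends of GC content and length removed it also held (-0.47, edgeR adjusted p 0.00362), as it did by DESeq2 (-0.60, adjusted p 8.80e-05). By DESeq2 it was again the 1 member called of 34, beside 0.812% of all 20577 genes with a DESeq2 p-value. That set takes in genes of low count that the 13572 genes of edgeR leave out.

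The direction of PIK3C2B was the same in each run, but the call was not. It was lost when any one of siETV4 replicates 1 to 4 or siNC replicates 1 to 3 was left out, with edgeR adjusted p values from 0.0870 to 0.203 and log2 fold changes from -0.66 to -0.57. It was also lost with library size alone as the scaling (edgeR adjusted p 0.0570) and in 3 fits of log2 FPKM (limma adjusted p 0.0571 to 0.105). PIK3C2B lies on chromosome 1 from 204422633 to 204494805 (GRCh38). PIK3C2A was at 53.0, 23.4, 34.4 and 24.5 CPM in siETV4 replicates 1 to 4 and at 30.0, 25.7, 27.2 and 66.2 CPM in siNC, with a log2 fold change of -0.14 (SE 0.33).

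**Figure D2:**
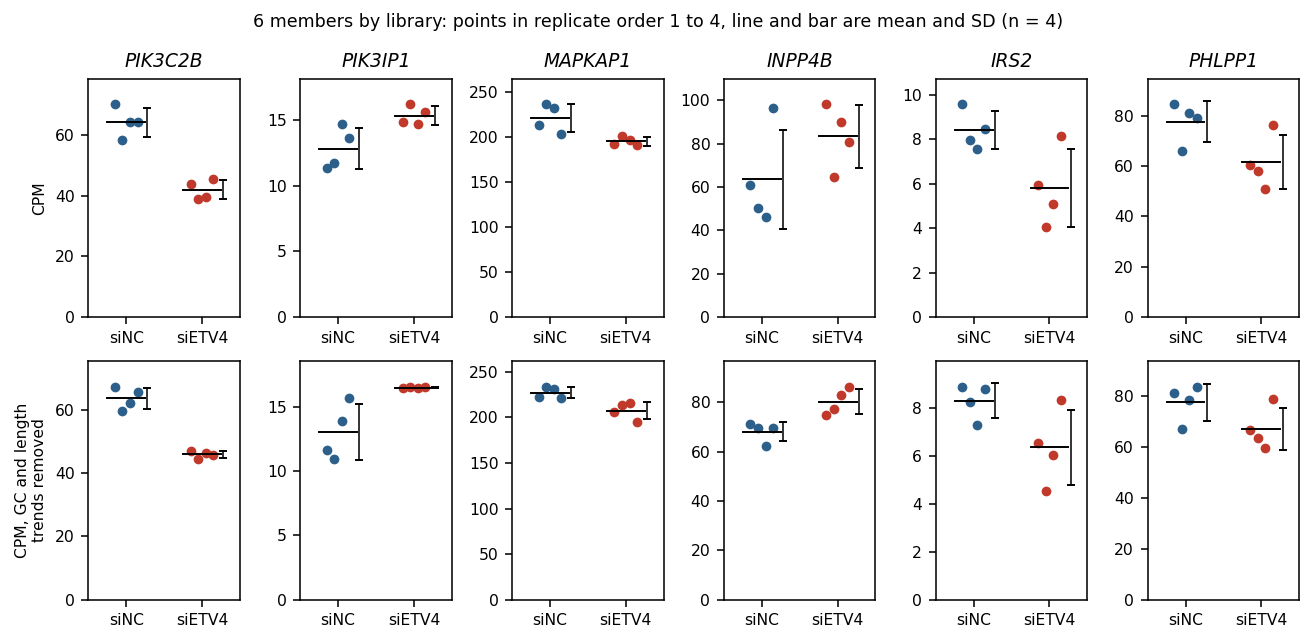
CPM of 6 members in each library, as measured (top row) and with GC content and length trends removed (bottom row), siNC in blue and siETV4 in red, with the mean and SD (n = 4). The members were picked with their values known. PIK3C2B lies lower in all 4 siETV4 libraries (39.0 to 45.4 CPM) than in siNC (58.3 to 70.0 CPM), and the INPP4B groups part only once the trends are removed.

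PIK3IP1, a membrane protein that restrains class I PI3K, was the member whose siETV4 libraries all stood above the siNC libraries. It stood at 14.86, 16.18, 14.68 and 15.59 CPM in siETV4 and at 11.32, 11.68, 14.65 and 13.64 CPM in siNC. The gap between the groups was narrow, and its log2 fold change of 0.26 (SE 0.13, 95% interval -0.03 to 0.54) did not pass (edgeR adjusted p 0.430). It passed with trends removed and siNC replicate 4 left out together (log2 fold change 0.44, edgeR adjusted p 0.0288), but not with either step alone (edgeR adjusted p 0.141 without the library and 0.177 with the trends removed). In all, 3 of the 34 members had groups that did not overlap in CPM, beside 6.55% of all genes tested. PIK3IP1 was higher, and PIK3C2B and MAPKAP1 were lower.

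The phosphatases oppose the chain: INPP4B removes a phosphate from inositol lipids, and PHLPP1 and PHLPP2 dephosphorylate Akt. PHLPP1 was at 12.2 ± 1.44 FPKM in siNC, INPP4B at 4.79 ± 1.88 FPKM and PHLPP2 at 1.10 ± 0.428 FPKM. INPP4B had the highest log2 fold change of the members, 0.39 (SE 0.22, 95% interval -0.08 to 0.87), which did not pass (edgeR adjusted p 0.468). INPP4B stood at 98.1, 64.5, 90.1 and 80.9 CPM in siETV4, and at 60.9, 50.5 and 46.2 CPM in siNC replicates 1 to 3. The groups overlapped through siNC replicate 4 alone, at 96.6 CPM.

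Without siNC replicate 4, INPP4B passed (log2 fold change 0.67, edgeR adjusted p 0.0129). With GC and length trends removed its siETV4 libraries lay at 75.1 to 86.3 CPM and its siNC libraries at 62.4 to 71.3 CPM, with no overlap. In that form 4 of 34 members had groups apart, beside 9.86% of all genes. The log2 fold change of INPP4B was then 0.24 (edgeR adjusted p 0.122). INPP4B has one of the lowest GC contents of the members, 37.2%. PHLPP1 had a log2 fold change of -0.34 (SE 0.13, edgeR adjusted p 0.355), with 51.0 to 76.3 CPM in siETV4 and 65.9 to 84.6 CPM in siNC. PHLPP2 stood at 0.22 (SE 0.22). MARVELD3 overlaps PHLPP2 on the opposite strand.

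Akt and its activator were close to even. AKT1 had a log2 fold change of -0.06 (SE 0.11), with a 95% interval of -0.31 to 0.19, AKT2 of -0.13 (SE 0.12) and PDPK1 of 0.06 (SE 0.12). With GC and length trends removed the sign of AKT1 and of AKT2 turned, to 0.09 and 0.04. AKT1 exceeded AKT2 by 4.62 to 5.41 times per length in each of the 8 libraries, the narrowest range of the ratios formed. PDPK1 has a near-identical partial copy, and the sources used do not say how reads were shared between copies.

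The TSC complex holds RHEB inactive. RHEB was abundant, at 37.5 ± 1.90 FPKM in siNC and 41.5 ± 0.891 FPKM in siETV4, with a log2 fold change of 0.10 (SE 0.08). TSC2, the subunit that acts on RHEB, was at 7.60 ± 1.31 FPKM in siNC and TSC1, its partner, at 3.70 ± 0.448 FPKM. TSC2 had a log2 fold change of -0.27 (SE 0.14, edgeR adjusted p 0.450) and TSC1 of -0.04 (SE 0.13). In CPM, the siETV4 libraries held TSC2 at 41.8, 44.5, 38.9 and 51.5 and the siNC libraries at 63.8, 47.6, 58.8 and 43.1, and siNC replicates 2 and 4 reached into the siETV4 range. The annotated span of TSC2 overlaps NTHL1 and PKD1 on the opposite strand.

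Both mTOR complexes share MTOR, the kinase, and MLST8. MTOR stood at 8.89 ± 1.30 FPKM in siNC with a log2 fold change of -0.12 (SE 0.13), and MLST8 at 21.2 ± 2.91 FPKM with -0.19 (SE 0.12). RPTOR, the scaffold of complex 1, was at 9.30 ± 0.962 FPKM with a log2 fold change of -0.15 (SE 0.12). RICTOR, the scaffold of complex 2, was at 1.95 ± 1.07 FPKM with 0.03 (SE 0.33). With GC and length trends removed, the log2 fold changes of MTOR, RPTOR and RICTOR were -0.0016, -0.0027 and -0.14. The ratio of RPTOR to RICTOR was 5.64 to 7.36 in siNC replicates 1 to 3 but 2.53 in the fourth, and 2.77, 6.13, 3.08 and 7.51 in siETV4. Within each group the ratio thus varied by more than 2 times.

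MAPKAP1 (also called SIN1) was lower in all 4 siETV4 libraries, at 192, 201, 197 and 191 CPM against 214, 236, 233 and 204 CPM in siNC. Its log2 fold change was small, -0.18 (SE 0.08, 95% interval -0.36 to -0.0031), and did not pass (edgeR adjusted p 0.393). MLST8 passed only without siNC replicate 4 (log2 fold change -0.29, edgeR adjusted p 0.0408), and with trends removed its log2 fold change was -0.025. AKT1S1 had a log2 fold change of -0.13 (SE 0.12). DEPTOR, an inhibitor of both complexes, had 3 to 24 counts per library, too few for a comparison (95% interval -1.16 to 1.38).

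GSK3A and GSK3B are kinases that Akt switches off. GSK3A stood at 21.7 ± 2.96 FPKM in siNC and 18.4 ± 1.20 FPKM in siETV4, and GSK3B at 11.1 ± 2.06 FPKM in siNC. GSK3A had a log2 fold change of -0.29 (SE 0.13, edgeR adjusted p 0.395). Its siETV4 libraries stood at 39.0, 42.6, 35.4 and 42.0 CPM and siNC replicates 1 to 3 at 52.6, 48.3 and 54.9 CPM, while siNC replicate 4 stood at 38.1 CPM. Without that library GSK3A passed (log2 fold change -0.39, edgeR adjusted p 0.0263), and with GC and length trends removed it did not (-0.20, edgeR adjusted p 0.278). GSK3B had a log2 fold change of 0.07 (SE 0.11), which turned to -0.09 with the trends removed.

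The FOXO factors are excluded from the nucleus when Akt phosphorylates them. FOXO4 was the most abundant per length, at 4.41 ± 0.551 FPKM in siNC, ahead of FOXO3 at 2.17 ± 0.384 and FOXO1 at 1.60 ± 0.405 FPKM. This order depends on the single length per gene behind FPKM, 3897 bases for FOXO4 and 14591 for FOXO3. Not scaled to length, FOXO3 was the higher in siNC, at a mean of 32.0 CPM against 17.4 CPM for FOXO4. FOXO1 had a log2 fold change of -0.31 (SE 0.20, edgeR adjusted p 0.520), FOXO4 of -0.22 (SE 0.13, edgeR adjusted p 0.495) and FOXO3 of 0.13 (SE 0.16, edgeR adjusted p 0.725). The groups overlapped for all 3, with FOXO1 at 11.3 to 17.1 CPM in siETV4 and 12.4 to 20.9 CPM in siNC. FOXO3 has a near-identical copy, FOXO3B, which held 229 to 330 counts per library.

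**Figure D3:**
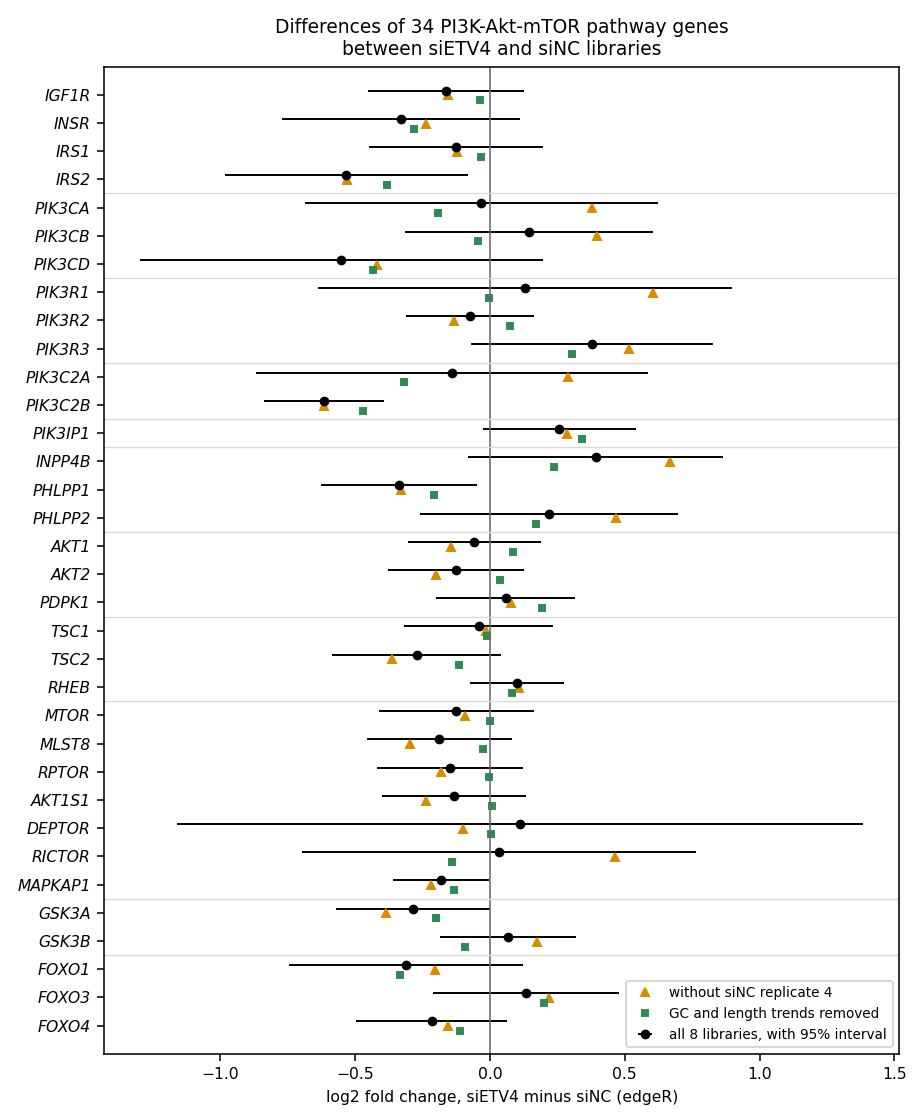
Log2 fold change (siETV4 minus siNC) of the 34 members by edgeR with its 95% interval in all 8 libraries (black), without siNC replicate 4 (orange triangles) and with GC content and length trends removed (green squares). PIK3C2B keeps a negative value under all 3 fits (-0.61, -0.61 and -0.47), while PIK3CA, PIK3R1, PIK3C2A and RICTOR lie apart between them.

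Over the whole set, 22 members had a negative and 12 a positive log2 fold change. Their median was -0.12 beside -0.01 for all genes tested, of which 51.6% were negative. With GC and length trends removed the counts were again 22 negative and 12 positive. The members' median was then -0.03, beside -0.0024 for all genes of that fit. No member changed by 2-fold or more. The 95% intervals of 32 members lay within 2-fold in either direction, all but PIK3CD and DEPTOR, and 18 lay within 1.5-fold. At an unadjusted p of 0.05 the members were IRS2, PIK3C2B, PHLPP1, MAPKAP1 and GSK3A, 5 of 34 beside 12.6% of all genes tested.

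The count of members called changed with the libraries and the trends. Without siNC replicate 4, 4 of 34 passed (PIK3C2B, MLST8 and GSK3A lower, INPP4B higher), beside 16.9% of all genes tested (4.88% lower and 12% higher). With GC and length trends removed, 1 of 34 passed (PIK3C2B, lower), beside 1.7% (0.848% lower and 0.848% higher). With both steps, 2 passed (PIK3C2B lower, PIK3IP1 higher), beside 6.34% (3.39% lower and 2.95% higher).

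Among themselves, the members varied between libraries by their GC content. The 6 members with a transcript GC content under 41% were PIK3CA, RICTOR, PIK3C2A, INPP4B, PIK3CB and PIK3R1 (34.8 to 40.3%), a set picked with the values known. Their median deviation from the gene mean was 0.90 on the log2 scale in siNC replicate 4, and 0.61 and 0.30 in siETV4 replicates 1 and 3. It was -0.22, -0.41 and -0.39 in siNC replicates 1 to 3, and -0.38 and -0.17 in siETV4 replicates 2 and 4. These members therefore stood high in the same 3 libraries whichever siRNA was used.

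The 11 members at 55% GC or more went the other way and less far, with median deviations of -0.14 in siNC replicate 4, -0.14 and -0.29 in siETV4 replicates 1 and 3, and 0.13 to 0.26 in siNC replicates 1 to 3. Over the 34 members, Spearman's rho between deviation and GC content was -0.82, 0.38, -0.65 and 0.08 in siETV4 replicates 1 to 4. In siNC replicates 1 to 4 it was 0.68, 0.66, 0.75 and -0.63. Across members the log2 fold change itself had a rho of -0.54 with GC content, -0.74 without siNC replicate 4 and 0.02 with the trends removed. These correlations are across genes of the same libraries and carry no test. The part of GC content in the lost and gained calls above was not tested.

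**Figure D4:**
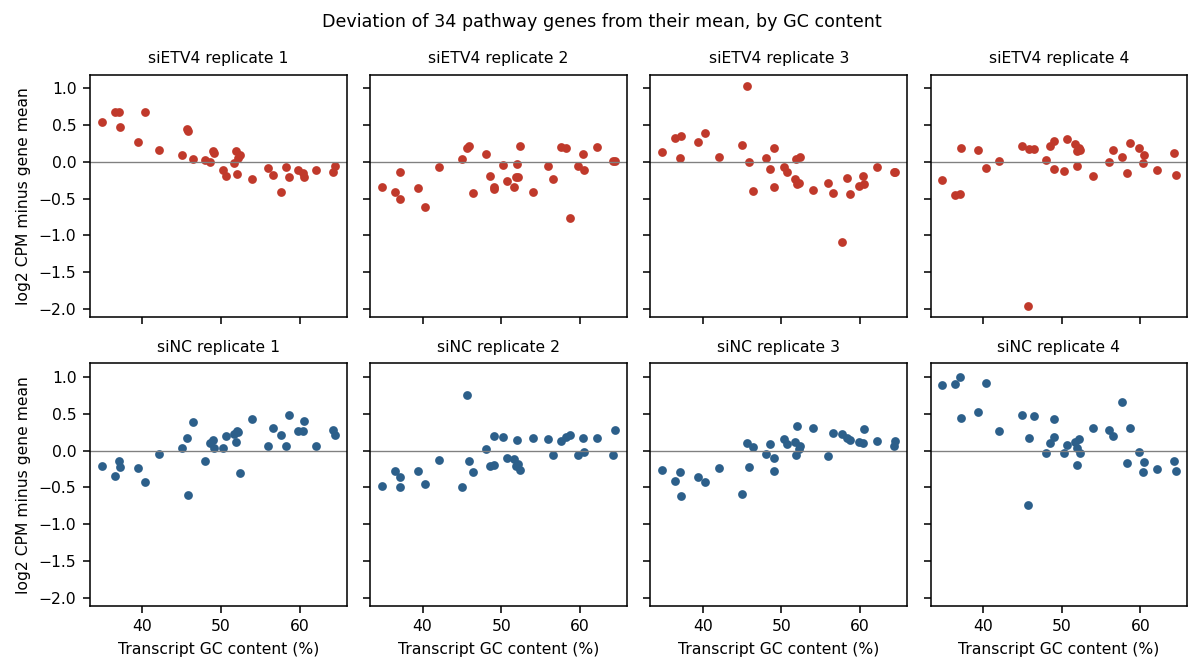
Log2 CPM of each of the 34 members minus its mean over all libraries, against transcript GC content in percent, with 1 panel per library (siETV4 in red, siNC in blue). The slope is downward in siETV4 replicates 1 and 3 and in siNC replicate 4 (rho -0.82, -0.65 and -0.63) and upward in siNC replicates 1 to 3 (0.68, 0.66 and 0.75).

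The spread followed the same line. The 6 members of low GC content had standard errors of 0.21 to 0.35 on the log2 scale, and the 24 others with at least 1 FPKM in siNC had 0.08 to 0.22. Ratios between a member of low and one of higher GC content moved with the library, as for PIK3R2 to PIK3R1 and RPTOR to RICTOR. The ratio of AKT1 to AKT2, at 62.1% and 58.3% GC, was steadier, from 4.62 to 5.41. Not every ratio of members alike in GC content was as steady. That of FOXO3 to FOXO1, at 49.1% and 46.4% GC, ran from 1.25 to 2.39. The part of GC content in these ratios was not tested.

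**Figure D5:**
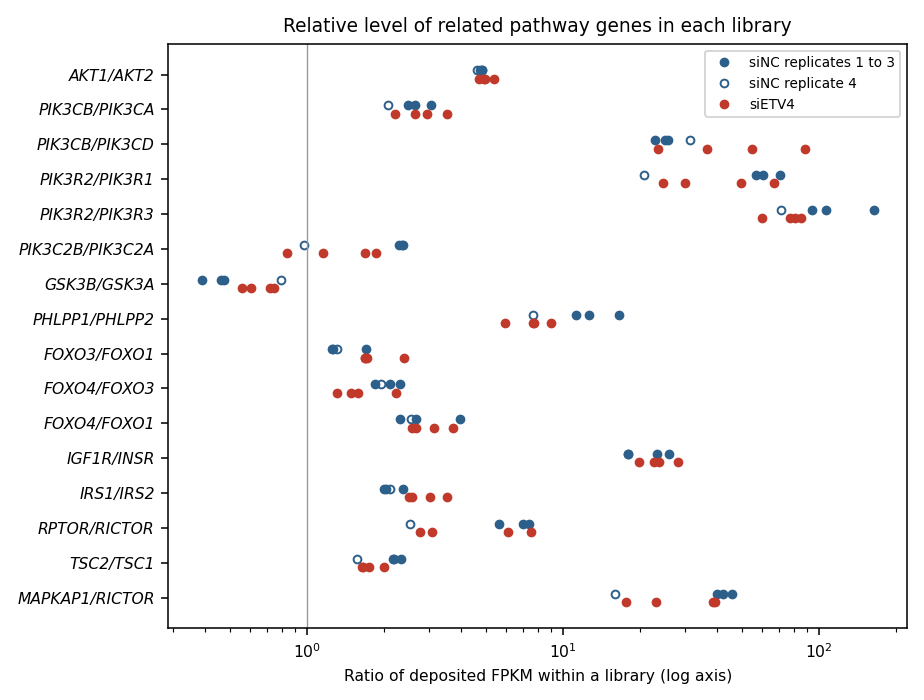
Ratio of the deposited FPKM of 2 related genes within each library (log axis), with siETV4 in red, siNC replicates 1 to 3 in filled blue and siNC replicate 4 as an open circle. AKT1/AKT2 spans 4.62 to 5.41 over all libraries, whereas PIK3R2/PIK3R1 spans 20.7 to 70.4 with siNC replicate 4 lowest.

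Beyond the members, 10 lists held 150 further genes of the pathway, of which 125 were tested. None passed over all genes by edgeR, against 14 at an unadjusted p under 0.05 (beside 12.6% of all genes). By DESeq2, 4 passed (DDIT4, SEH1L, SOD2 and TXNIP), beside 0.812% of the 20577 genes with a DESeq2 p-value. The lowest edgeR adjusted p was that of DDIT4, which encodes REDD1, an inhibitor of mTOR complex 1 induced by stress. Its mean was 302 CPM in siETV4 against 420 CPM with the control siRNA (a log2 fold change of -0.47, SE 0.09, edgeR adjusted p 0.0579).

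Without siNC replicate 4, 15 of the 125 were higher and 4 lower, beside 12% and 4.88% of all genes tested, so these shares were near the background. Among the higher were PIK3R4 and PIK3C3 of the class III PI3K complex (log2 fold changes 0.67 and 0.62), the AMPK subunits PRKAA1 and PRKAB2 (0.62 and 0.65) and the cap-binding factor EIF4E (0.59). These 5 did not pass with GC and length trends removed and all 8 libraries kept, and their log2 fold changes were then 0.13 to 0.27. In that same fit 2 of the 125 were higher, SOD2 (0.46, edgeR adjusted p 0.0238) and GADD45A (0.37), and 2 were lower, SEH1L (-0.89) and DDIT4 (-0.35, edgeR adjusted p 0.0240), beside 0.848% of all genes in each direction. With both steps 3 were higher (PIK3R4 at 0.42, GADD45A and SOD2) and 4 lower (SEH1L, DDIT4, LAMTOR5 and PPP2R2A), beside 2.95% and 3.39% of all genes. PPP2R2A and LAMTOR5 lie outside the rule for named genes and are named with their values known.

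The lists did not share a direction. FOXO target genes described elsewhere had a median log2 fold change of 0.20 (0.09 with GC and length trends removed), with 12 of 15 positive and 0 called. The manganese superoxide dismutase SOD2 (0.59 in all libraries) and TXNIP (0.40), an inhibitor of thioredoxin and of glucose uptake, passed without siNC replicate 4. SOD2 and TXNIP also answer to inflammatory and glucose signals. The Rag, Ragulator, GATOR and amino acid sensor genes had a median of -0.05, with 10 of 30 positive. SEH1L, a subunit shared by the GATOR2 complex and the nuclear pore, had means of 22.3 (siETV4) and 35.6 CPM (siNC), a log2 fold change of -0.68 (edgeR adjusted p 0.184), and the most abundant genes of this list, the Ragulator subunits LAMTOR1 and LAMTOR2, stood at -0.06 (0.07 with the trends removed) and -0.13.

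The lists of mTORC1 outputs (19 tested) and of IGF and insulin axis genes (10 tested) had medians of -0.06 and -0.10, and AMPK, LKB1 and REDD1 genes (11 tested) of 0.08. IGFBP3, an abundant secreted binding protein of insulin-like growth factors, stood at 597 FPKM in siETV4 and 610 FPKM in siNC (log2 fold change -0.075). EEF2 and RPS6, translation proteins downstream of mTOR complex 1, had log2 fold changes of -0.15 and 0.14, and that of RPS6 turned to -0.05 with the trends removed. For the other lists the medians were 0.06 for further PI3K subunits and adaptors (8 tested), 0.05 for further phosphatases (11 tested), -0.05 for other Akt-related kinases (5 tested), -0.06 for other TSC and mTORC2 parts (5 tested) and 0.01 for other Akt substrates (13 tested). Once GC and length trends were removed, the median of the IGF and insulin axis turned to 0.04, that of the other TSC and mTORC2 parts to 0.0081 and that of the other Akt substrates to -0.04. The medians of the other 7 lists kept their sign, among them -0.03 for mTORC1 outputs and 0.08 for the AMPK, LKB1 and REDD1 genes.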

How the data were processed

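RNA sequencing of 8 HaCaT cultures was analysed from 2 deposited tables. The authors deposited raw read counts per gene symbol and FPKM, which a script reproduced from count, library total and a single length per gene. The genome was hg38 and R 3.2.0 was used, per the submitters' processing notes. Which aligner, counter, annotation and strand setting were used was not given in the sources used here. The authors' counts were tested with edgeR 4.0.16 (quasi-likelihood, filterByExpr with a minimum count of 10, TMM factors, R 4.3.3) in 4 siETV4 and 4 siNC libraries, with no covariate. P-values were adjusted by Benjamini-Hochberg over 13572 genes, with a threshold of 0.05. CPM were computed with TMM factors, and the deposited FPKM served only to compare levels between genes and in alternative fits. At the mean depth 1 CPM was 40.1 counts. The scripts were tested on simulated data.

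For GC and length offsets, trends (natural splines, 5 degrees of freedom) were fitted per library over the 12971 genes (95.6%) with a GC value from the longest GENCODE transcript, all 34 members included. Alternatives were DESeq2 1.42.0, limma 3.58.1, other scalings, filters and thresholds, a replicate block and leaving out each library. No 2 libraries agreed within sampling noise. The members and lists were chosen with earlier results of these data known. All members were to be named, and from each other list up to 3 genes past the threshold by smallest p (else the 2 most abundant), plus up to 3 past it without siNC replicate 4. Some genes that the rule names are not reported here. Promoters came from RefSeq (GRCh38.p14).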

Additional observations from a re-analysis of the deposited data

Results flagged for a closer look

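In 18 of 138 groups of 4 libraries tested by Dixon's criterion, a single library lay farther from the others than the 95% critical value, where chance gives about 1 in 20. Members gave 8 of the 18, from 68 groups, and siNC replicate 4 was the library in 14. Many of the other genes were named because they passed without siNC replicate 4. Flags of that library in those genes are therefore partly fixed by the naming rule, and the chance rate does not apply to them. The gap to the nearest library as a share of the range follows each gene in brackets.

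Among members, siNC replicate 4 was the highest siNC library for PIK3CA at 33.3 against 12.8 to 15.5 CPM (0.872), PIK3CB at 49.1 against 26.5 to 29 CPM (0.892), PIK3CD at 1.45 against 1.01 to 1.08 CPM (0.838), PIK3R1 at 17.7 against 6.84 to 6.98 CPM (0.987), PIK3C2A at 66.2 against 25.7 to 30 CPM (0.893) and RICTOR at 33.8 against 13.5 to 14.8 CPM (0.934). Of these 6, all but PIK3CD are among the members of low GC content, a set picked with the values known. AKT1 was highest in siETV4 replicate 2, 263 against 211 to 218 CPM (0.864), and TSC1 lowest in siNC replicate 2, 29.1 against 35.8 to 36.4 CPM (0.916).

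Among the other pathway genes, siNC replicate 4 was highest in siNC for PIK3R4 at 68.4 against 35.5 to 38.7 CPM (0.904), FRS2 at 26.3 against 10.1 to 12.3 CPM (0.867), PPP2R5C at 105 against 63.4 to 70.1 CPM (0.838), SEH1L at 47.6 against 30.4 to 33 CPM (0.845), PRKAB2 at 30.9 against 17.9 to 19.7 CPM (0.86), PFKFB2 at 37.8 against 21.5 to 23.8 CPM (0.858) and SOD2 at 170 against 108 to 117 CPM (0.844). It was lowest for EEF2 at 3722 against 4505 to 4582 CPM (0.91). RPS6 was highest in siNC replicate 2, 1074 against 876 to 908 CPM (0.838), and LAMTOR2 in siETV4 replicate 2, 49.2 against 40.4 to 41.6 CPM (0.863).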

How the results depend on the processing

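Beside 32 genes called in all, DESeq2 called 167, no filter 54, the log2 FPKM fits with pseudocounts of 1 and 0.1 59 each, the offsets for GC content and length 220, the offsets without siNC replicate 4 832, the offsets with the replicate block 100, and thresholds of 0.01 and 0.1 called 9 and 60. Leaving out each library in turn gave 9 to 2327 genes and 0 to 4 members, and the highest of both came without siNC replicate 4. Beside 1 member called, 0 passed with library size alone, a threshold of 0.01 or log2 FPKM (pseudocounts of 1 and 0.1, and 1 with no filter), and 2 passed with the offsets without siNC replicate 4. The median log2 fold change of the members lay between -0.13 and -0.03 throughout.

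The replicate numbers did not pair the libraries: deviations of same-numbered libraries correlated at -0.09, 0.30, -0.14 and -0.19, and not every library correlated best with its own number. With the replicate block 4 genes and 0 members were called (PIK3C2B edgeR adjusted p 0.156), and with the block and the offsets together PIK3C2B passed (0.0211).

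Of 705 values of members under alternatives, 637 kept direction and side of the threshold, 52 changed sign, in 14 members, 12 fell short of it and 4 passed it. No value that changed sign had an adjusted p below 0.175. The log2 fold changes that changed sign follow, and they include named genes of the other lists, which are not part of these counts. With library size alone they were PIK3CA 0.000694 and TSC1 0.000605. With a filter of 1 CPM it was PPP2R1A -0.00182, with limma-voom PIK3CA 0.025 and DEPTOR -0.10, and with the replicate block PIK3CA 0.045 and DEPTOR -0.020. With log2 FPKM they were PIK3CA 0.038 and TSC1 0.000171 (pseudocount 1, with or without a filter) and PIK3CA 0.073 and TSC1 0.000218 (pseudocount 0.1). With the offsets they were PIK3CB -0.046, PIK3R1 -0.00405, PIK3R2 0.074, AKT1 0.086, AKT2 0.037, AKT1S1 0.00669, RICTOR -0.14, GSK3B -0.093, PKN2 -0.081, IGFBP6 0.063, TELO2 0.068, LAMTOR1 0.066, STK11 0.011 and RPS6 -0.053. With the offsets and the block they were PIK3CB -0.051, PIK3R2 0.075, AKT1 0.085, AKT2 0.033, MTOR 0.00112, AKT1S1 0.00949, DEPTOR -0.12, RICTOR -0.15, GSK3B -0.092, PKN2 -0.076, IGFBP6 0.065, TELO2 0.074, LAMTOR1 0.066, STK11 0.011 and RPS6 -0.050. With the offsets and without siNC replicate 4 they were PIK3CB -0.018, PIK3R2 0.081, AKT1 0.062, MTOR 0.030, DEPTOR -0.22, RICTOR -0.015, GSK3B -0.14, FOXO4 0.00917, PPP2CA -0.027, IGFBP6 0.12, TELO2 0.013, LAMTOR1 0.076, STK11 0.00637 and RPS6 -0.13. Leaving out each library in turn gave ranges across 0 for PIK3CA -0.24 to 0.38, PIK3R1 -0.086 to 0.60, PIK3R2 -0.13 to 0.013, PIK3C2A -0.44 to 0.29, TSC1 -0.13 to 0.013, DEPTOR -0.27 to 0.44, RICTOR -0.22 to 0.46, PPP2R1A -0.074 to 0.045, PKN2 -0.10 to 0.48 and LAMTOR1 -0.14 to 0.00486. The offsets remove the trends with GC content and length together, and the cause of the sign changes was not tested. Low counts limit DEPTOR and PIK3CD.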
